A study of Homo sapiens with 8 samples.

Results

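H3K27ac is the acetylated form of lysine 27 of histone H3 and marks active promoters and enhancers, where acetyltransferases deposit it and bromodomain proteins read it. H3K23su is the succinylated form of lysine 23 of the same histone, an acyl mark made from succinyl-CoA, a metabolite of the tricarboxylic acid cycle. Both were profiled by CUT&Tag, in which an antibody tethers a transposase to chromatin and the fragments it cuts out are sequenced, in HCT15, an established human colorectal cancer line. HCT15-Pa is the parental line, labelled as treated with DMSO, and HCT15-FR is its derivative resistant to 5-fluorouracil (5-FU, a pyrimidine analogue that blocks thymidylate synthase), labelled with 20 μg/mL 5-FU. By the study's methods the resistant cells were moved to drug-free medium before experiments, and a single resistant derivative was compared with a single parental line. Each line had 2 libraries for each mark, 8 in all, and all of the groups used here share the HCT15 background.

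The regions described here carried H3K27ac in both lines and H3K23su in neither. Overlapping or touching H3K27ac peaks of the 4 libraries were merged into 133786 regions, of which 33732 held a peak in all 4 lists and are called constant. Of these constant regions, 1744 (5.17%) shared not a single base with any peak of the 4 H3K23su lists. They were selected on measured peaks of both marks, so the presence of H3K27ac, the absence of H3K23su, and the peak scores and widths that go with them are described without a test against other regions. At the other extreme, 23346 constant regions (69.2%) overlapped a peak in all 4 H3K23su lists, and 1790, 2876 and 3976 regions did so in 1, 2 and 3 lists. In the opposite direction, 620 of 29230 constant H3K23su regions lacked any H3K27ac peak. The lists held 65364 to 76676 peaks each, and the lists themselves carry no read counts. As a check of the label, 8 of 10 colon epithelial marker genes, among them EPCAM, CDH1 and CDX2, had an H3K27ac peak within 2 kb of a transcription start site (TSS) in all 4 libraries. Among 10 markers of other cells, PTPRC, CD3E, PECAM1, COL3A1 and ALB had none in any library, whereas COL1A1, ACTA2 and GFAP had one in all 4.

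Sequences of the highest-ranked regions are shown first, because they differed in kind from the bulk. Each peak score was turned into its percentile within its own list, and regions were ranked by the lowest of their 4 percentiles. The windows below are the central bases, at most 300, of the first region in a promoter and the first 2 outside promoters, passing over windows with an annotated exon, on the plus strand of GRCh37. Capitals mark matches to the 17 motifs searched, which in these windows were the GC box GGGCGGG and the KLF motif CCACNCCC on either strand.
CARM1 promoter, chr19:10981504-10981803: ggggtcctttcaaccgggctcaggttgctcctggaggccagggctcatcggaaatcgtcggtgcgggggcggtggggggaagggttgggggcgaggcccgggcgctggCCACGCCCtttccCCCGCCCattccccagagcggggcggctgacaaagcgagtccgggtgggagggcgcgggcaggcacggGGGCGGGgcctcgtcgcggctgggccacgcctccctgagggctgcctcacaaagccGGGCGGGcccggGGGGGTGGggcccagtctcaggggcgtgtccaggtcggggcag
MMEL1 intron, chr1:2583652-2583951: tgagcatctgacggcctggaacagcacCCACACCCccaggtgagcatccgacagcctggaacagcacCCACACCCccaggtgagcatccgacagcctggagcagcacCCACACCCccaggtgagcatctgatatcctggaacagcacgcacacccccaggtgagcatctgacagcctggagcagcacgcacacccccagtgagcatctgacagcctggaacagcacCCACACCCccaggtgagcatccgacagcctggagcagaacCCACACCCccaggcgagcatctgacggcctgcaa
BTNL9 intron, chr5:180472899-180473198: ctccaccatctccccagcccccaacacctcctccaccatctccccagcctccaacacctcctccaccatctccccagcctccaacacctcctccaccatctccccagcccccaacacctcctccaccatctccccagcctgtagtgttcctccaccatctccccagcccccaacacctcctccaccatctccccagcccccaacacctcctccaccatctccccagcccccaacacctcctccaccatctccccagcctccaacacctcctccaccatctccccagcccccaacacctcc
The CARM1 window lay in a GC-rich promoter and matched both motifs. The MMEL1 and BTNL9 windows were tandem arrays, with 80.8% of bases identical to the base 40 bp further on in MMEL1 and 88.1% at a shift of 30 bp in BTNL9.

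Most of the 1744 regions were narrow and weakly called. Their median width was 671 bp (quartiles 506 and 875.2 bp), against 1226 bp for constant regions with H3K23su in all 4 lists. The median of the weakest percentile was 23.3 against 71.8. The share of constant regions without H3K23su was 19.9% among the narrowest (151 to 585 bp) and 0.208% among the widest (1813 to 4160 bp). It was 17.0% in the lowest and 0.119% in the highest of 10 equal groups of the weakest percentile. A wider region has more bases that an H3K23su peak can touch, and these shares follow from measures tied to the rule.

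The gap to the nearest H3K23su peak had a median of 5746 bp (quartiles 1852 and 14508 bp, range 1 to 1366994 bp). H3K23su lay within 2 kb of 460 regions (26.4%) and within 500 bp of 123 (7.05%). At the threshold of the rule, 6 regions had a gap of at most 50 bp and so fell inside, while 16 constant regions overlapped H3K23su of a single list by at most 50 bp and fell outside. The median weakest percentile of the 16 regions outside was 8.76, and that of the 6 regions inside was 15.8.

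By position, these regions were poor in promoters and rich in intergenic sites. Midpoints within 1 kb upstream to 100 bp downstream of an annotated TSS, the promoter class, made up 293 regions or 16.8% (exact 95% binomial interval 15.1 to 18.6%, counting error only). The same class held 37.7% of the constant regions with H3K23su in all 4 lists and 31.6% of all constant regions. Intergenic midpoints numbered 560 (32.1%, 29.9 to 34.4%) against 13.9% with H3K23su in all 4 lists. Introns held 37.7% and 38.0%, and exons held 6.25% of either group. Over 1 kb from any protein-coding TSS lay 85.1% of the regions lacking H3K23su and 53.6% of those with it in all 4 lists. With 1, 2 and 3 H3K23su lists the intergenic share was 29.9%, 26.7% and 22.5%. These groups also differed in width and score, and regions are not replicates, so no test was made.

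**Figure D1:**
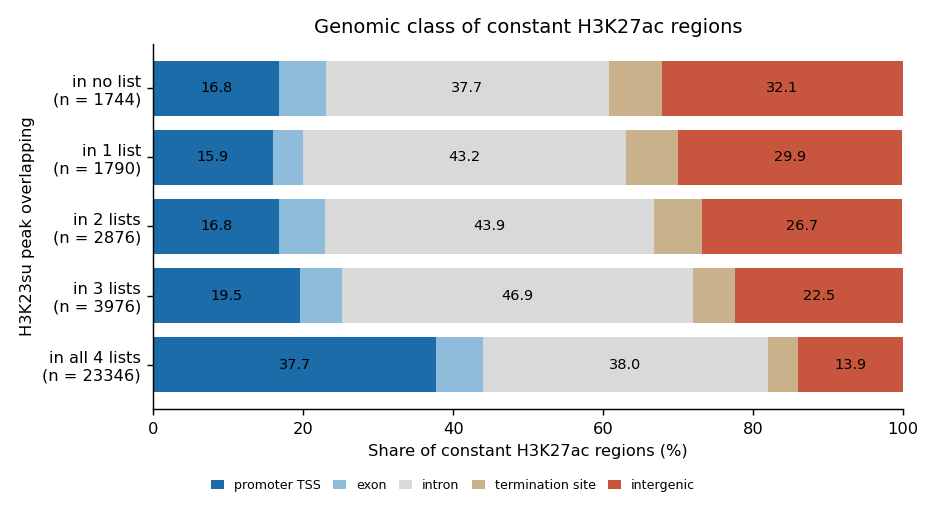
Share of constant H3K27ac regions (horizontal axis, %) in 5 genomic classes by midpoint, for regions overlapping an H3K23su peak in 0 to 4 lists (rows, n in brackets). The intergenic part shrinks from 32.1% with no list to 13.9% with all 4, and the promoter part is largest, 37.7%, with all 4.

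At like width, and separately at like score, the intergenic regions still had the higher share without H3K23su. Width and score were not held alike together. Among the narrowest regions, 24.4% of intergenic, 19.4% of promoter and 16.6% of intronic regions lacked the mark. Among regions of 1088 to 1215 bp the shares were 3.33%, 1.44% and 2.45%. In the lowest group of the weakest percentile they were 24.7%, 19.8% and 13.2%, and in the sixth, from the 60.2 to the 69.6 percentile, 2.61%, 1.2% and 1.90%. In the highest group, above the 92.1 percentile, 0 of 262 intergenic and 2 of 2265 promoter regions lacked H3K23su, so that order did not extend to the strongest regions.

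**Figure D2:**
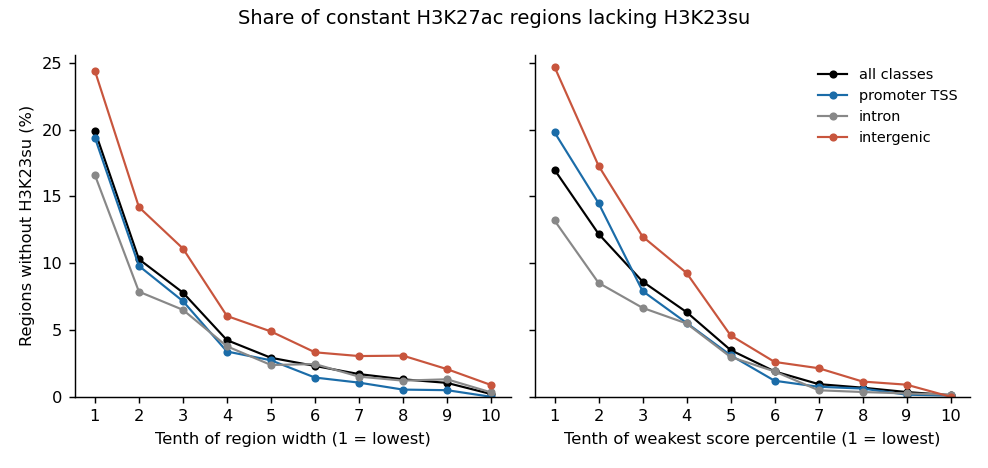
Share of constant H3K27ac regions with no H3K23su peak (vertical axis, %) in 10 equal groups of region width (left) and of the weakest within-list percentile (right), for all regions and for 3 classes. All lines fall, from 19.9% to 0.208% over width and from 17.0% to 0.119% over percentile for all regions, and the intergenic line is highest in all groups but the strongest.

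Pooled over classes, CpG-rich regions were fewer without H3K23su, but not in every class. CpG islands are GC-rich stretches that keep their CpG dinucleotides and sit at most housekeeping promoters. GC content was alike, with medians of 56.9% and 57.2% in regions lacking H3K23su and in those with it in all 4 lists. The ratio of observed to expected CpG reached 0.6 in 13.4% of the former and 38.4% of the latter. Within the promoter class the median ratio was 0.416 against 0.719 and within exons 0.334 against 0.629. Intergenic regions went the other way, with 10.2% against 6.0% at a ratio of at least 0.6 and medians of 0.259 against 0.229. The medians of introns (0.256 against 0.243) and termination sites (0.282 against 0.276) were also slightly higher without H3K23su, although the share reaching 0.6 was lower in both. Regions with under 80% distinct 12-base words, taken as repetitive, numbered 145 (8.31%) against 2.90%. Within 5 Mb of a chromosome end lay 19.0% (17.2 to 21.0%) against 14.4% (13.9 to 14.8%).

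Motifs were counted on both strands in windows reaching 200 bp to either side of each midpoint. The ETS core CCGGAAG occurred in 3.15% (2.38 to 4.09%) of the regions lacking H3K23su, in 8.84% of those with it in all 4 lists and in 7.40% of all constant regions. The GC box GGGCGGG occurred in 17.3%, 29.1% and 25.5%. The YY1 motif AAGATGGCG, typical of ribosomal and mitochondrial gene promoters, occurred in 3 regions (0.172%) against 1.45% and 1.11%. Within the promoter class alone the ETS core was at 6.14% (3.68 to 9.54%) against 16.2%, and the GC box at 38.6% against 50.6%. The AP-1 motif TGACTCA was at 18.2% (16.2 to 20.3%) outside promoters against 20.5%, but at 11.3% (7.88 to 15.5%) within promoters against 6.43%. Outside promoters the TEAD motif ACATTCC was at 6.0% (4.83 to 7.34%) against 8.01%, and the HNF4 motif CAAAGTCCA at 0.551% (0.238 to 1.08%) against 1.18%. Outside promoters the CTCF core AGNNGGCGC, at 8.06% against 6.42%, and the E-box CACGTG, at 7.93% against 6.51%, were the only 2 of the 17 motifs higher without H3K23su, although the lower ends of their intervals were 6.71% and 6.59%. Some of these motifs overlap in sequence, and a match is not a binding site.

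A protein-coding promoter seldom held such a region. Of 20162 annotated protein-coding genes, 12229 (60.7%) had a constant H3K27ac region in a promoter window and 276 had one that lacked H3K23su, which is 1.37% of all genes and 2.26% of those with a constant region. In 171 of the 276 genes (62.0%) an H3K23su peak lay elsewhere in a promoter window of the gene, and 134 had another constant region there. In 105 genes (38.0%) no promoter window of the gene held an H3K23su peak. The 276 genes shared 263 distinct regions when the strongest was taken for each, and 119 of these (45.2%) were within 2 kb of an H3K23su peak.

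The 12 genes with the highest-ranked promoter regions, which occupied 11 regions, are given with their MACS2 scores (−log10 P) in HCT15-Pa replicates 1 and 2 and HCT15-FR replicates 1 and 2. Scores of different libraries share no scale, so lines are compared by percentile only. MUC3A, a membrane mucin of the intestinal epithelium, ranked first, with scores of 23.2 and 35.7 in HCT15-Pa and 18 and 18.9 in HCT15-FR at chr7:100550709-100551223. Its percentiles were 99.6 and 99.9 in HCT15-Pa and 97.5 and 98.0 in HCT15-FR, so both parental libraries were above both resistant ones. The nearest H3K23su peak was 3647 bp from this region, and a promoter window of the gene held an H3K23su peak.

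Of the genes that follow, CARM1 and YY1 had regions with a CpG ratio of at least 0.6, and VPS72 did not, at 0.518. CARM1, an arginine methyltransferase and transcriptional coactivator, had scores of 9.47 and 10.1 in HCT15-Pa and 17.5 and 12.7 in HCT15-FR, and an H3K23su peak 359 bp away. The region of VPS72, which delivers the histone variant H2A.Z, scored 9.56, 8.37, 9.12 and 9.54 and was 803 bp from H3K23su. That of YY1, a zinc finger transcription factor, scored 8.09, 7.12, 10.4 and 10.2 at 1365 bp from H3K23su. In all 3 genes an H3K23su peak lay in another part of a promoter window.

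HES1, a repressor induced by Notch signalling, scored 7.10, 7.59, 8.25 and 8.46 in a 733 bp region at chr3:193852250-193852982, the only constant H3K27ac region in its promoter windows. No H3K23su peak lay in those windows, and the nearest was 513 bp from the region. POLR2L, a small subunit shared by the nuclear RNA polymerases, had a 562 bp region with scores of 7.04, 6.64, 11.6 and 9.29 that also lay at the promoter of TSPAN4, a tetraspanin. The windows of POLR2L held no H3K23su peak, while those of TSPAN4 did.

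SKI, a corepressor of TGF-β signalling, scored 6.34, 7.90, 8.72 and 9.24. MNT, a repressor that pairs with MAX, scored 7.17, 8.18, 9.12 and 7.48. LSM14B, an RNA-binding protein, scored 6.46, 6.98, 7.47 and 7.92. Their regions were 1235, 2445 and 485 bp from the nearest H3K23su peak. RNF111, a ubiquitin ligase of TGF-β signalling, scored 7.82, 8.17, 8.65 and 8.05, and its region was the farthest from H3K23su, at 15848 bp. TMEM259 shared its region with a U6 gene and is described with the U RNA genes. SKI, MNT, LSM14B, RNF111 and TMEM259 each had an H3K23su peak in another part of a promoter window.

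Of the 11 regions, 8 had a CpG ratio of at least 0.6 and 8 lay within 2 kb of an H3K23su peak. In percentile, both HCT15-FR libraries were above both HCT15-Pa libraries in 4 regions, the reverse held in 4, and the lines overlapped in 3. Over all constant regions these shares were 26.4% and 25.5%. With 2 libraries a line, no single region could be tested.

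**Figure D3:**
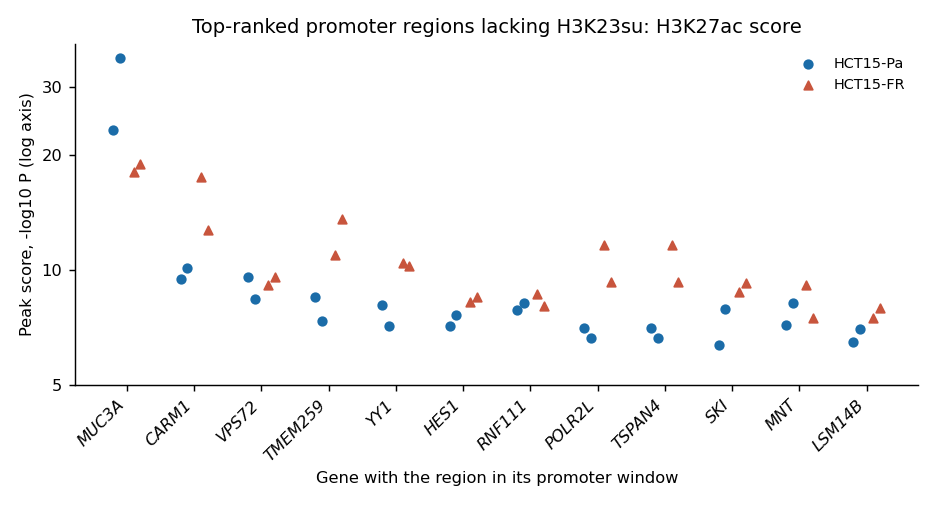
H3K27ac peak score (vertical axis, −log10 P, log scale) in each of the 4 libraries for the 12 protein-coding genes with the highest-ranked promoter regions lacking H3K23su, circles for HCT15-Pa and triangles for HCT15-FR. MUC3A is highest, with 18 to 35.7, and the other 11 genes lie between 6.34 and 17.5; POLR2L and TSPAN4 show the same region.

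Among the strongest regions without H3K23su, genes of small nuclear and nucleolar RNAs took a larger share than among constant regions in general. U1, U2, U4, U5 and U6 are the RNA components of the spliceosome, and U3 and U8 are nucleolar RNAs that process ribosomal RNA. U6 is made by RNA polymerase III and the others by RNA polymerase II, from short promoters served by the SNAPc factor. This set was chosen after its values were seen. Of 57 constant regions over such genes, copies named as pseudogenes included, 11 lacked H3K23su (19.3%) and 26 (45.6%) had it in all 4 lists. Over all constant regions the shares were 5.17% and 69.2%. With a weakest percentile of at least 70 the contrast was wider. Of 51 such regions 11 lacked H3K23su (21.6%), whereas 69 of all 13315 constant regions of that strength did (0.518%). Other small nucleolar RNA genes had 0 of 29 regions without H3K23su, which allows a share of up to 10.3%, and genes of the 7SK, 7SL, Y and vault RNAs had 1 of 20, over RNY4.

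The 11 regions had weakest percentiles of 82.8 to 95.9. They covered U1, U2, U5, U6, U3 and U8 but not U4. The U1 variant gene RNVU1-13, at chr1:147993630-147995086, scored 14.0 and 13.7 in HCT15-Pa and 15.6 and 19.4 in HCT15-FR, with H3K23su 5181 bp away. RNVU1-5 scored 12.2, 11.2, 12.1 and 12.2. RNVU1-19 scored 9.38, 9.01, 16.3 and 9.54 and was 61533 bp from H3K23su. RNU1-60P scored 8.97, 8.05, 13.6 and 12.3, and RNVU1-4 scored 7.35, 10.5, 9.68 and 13.0. These 5 are among 29 constant regions over U1 genes, of which 12 had H3K23su in all 4 lists.

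The canonical U1 genes were in the other group. RNU1-1, RNU1-2, RNU1-3 and RNU1-4 had H3K23su in all 4 lists, with H3K27ac scores of 27.8 to 42.6 in HCT15-Pa and 67.3 to 90.5 in HCT15-FR. Their percentiles were 99.8 to 99.9 in HCT15-Pa and, rounded, 100 in HCT15-FR. Some U1 copies are alike in sequence, as are the U3 genes SNORD3A and SNORD3C, whose 100 upstream bases were identical. By the study's methods only uniquely mapped reads were kept. How this affected peaks of either mark at such copies was not tested. The 100 bases upstream of each gene were compared position by position, without alignment. Of 100 bases, RNVU1-4 and RNVU1-5 shared all 100 with each other. They shared 31 to 41 with the U1 genes that could be compared and had H3K23su in all 4. RNVU1-19 shared 74 with RNU1-1 and 91 with RNVU1-18, which also had H3K23su in all 4. A shift of a few bases lowers such a count, so a low one does not show that copies are unlike. To show how alike the closest pairs are, the 100 bases upstream of a U1 variant gene without H3K23su and of the most similar one with H3K23su in all 4 lists are given 5′ to 3′ on the gene's strand, which is minus for both, from GRCh37, with the 9 bases that differ in capitals.
RNVU1-19, no H3K23su, chr1:149514257-149514356: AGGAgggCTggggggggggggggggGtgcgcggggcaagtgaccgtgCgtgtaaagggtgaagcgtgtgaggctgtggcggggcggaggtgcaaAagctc
RNVU1-18, H3K23su in all 4 lists, chr1:149224222-149224321: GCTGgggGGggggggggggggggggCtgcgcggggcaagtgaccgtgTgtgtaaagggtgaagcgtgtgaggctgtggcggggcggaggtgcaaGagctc
These sequences agreed at 91 of 100 positions. The weakest percentile of the H3K27ac region was 85.8 at RNVU1-19 and 98.7 at RNVU1-18.

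Both regions over the U3 genes SNORD3A and SNORD3C lacked H3K23su, with scores of 10.9, 10.7, 20.8 and 20.0 at SNORD3A and 9.06, 8.10, 13.7 and 16.1 at SNORD3C. SNORD118, the U8 gene, scored 7.67, 10.6, 9.93 and 9.64. Together U3 and U8 genes had 3 of 6 constant regions without H3K23su and 0 of 6 with it in all 4 lists. RNU2-59P, a U2 copy, scored 10.1 and 9.40 in HCT15-Pa and 29.3 and 28.1 in HCT15-FR, with percentiles of 91.9 and 89.7 against 99.6 and 99.6. RNU5A-8P, a U5 copy, scored 9.27, 8.61, 17.0 and 18. The U6 gene RNU6-2, whose region also lay at the TMEM259 promoter, scored 8.47, 7.35, 10.9 and 13.6 and had H3K23su 476 bp away.

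In percentile, both HCT15-FR libraries were above both HCT15-Pa libraries in 6 of the 11 regions, the reverse held in 1, and 4 overlapped, against 26.4% and 25.5% of all constant regions. The same order held at U RNA regions with H3K23su, among them those of RNU5D-1, RNU4ATAC and SNORD3B-2. The reverse held at others, among them those of RNU1-92P and RNVU1-1. The order was thus not particular to U RNA regions lacking H3K23su. The counts for the 11 regions are a description of a set picked after its values were seen.

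**Figure D4:**
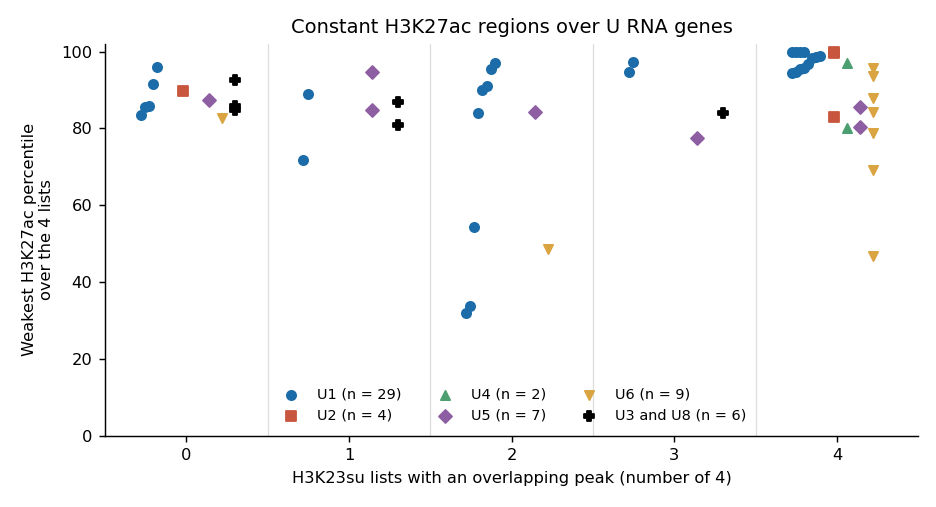
Weakest within-list percentile of H3K27ac (vertical axis) for the 57 constant regions over U1, U2, U4, U5, U6, U3 and U8 RNA genes, by the number of H3K23su lists with an overlapping peak (horizontal axis, 0 to 4), with a symbol for each family and small sideways shifts to separate points. The 11 regions with no H3K23su lie between 82.8 and 95.9.

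Outside promoters the 10 highest-ranked regions were a mixture of U RNA genes, tandem arrays and single sites. Of these, 5 overlapped U RNA genes, and their nearest protein-coding genes were NBPF14, BTRC, EPN2, PPIAL4C and TEX14. The MMEL1 region of 341 bp, 19347 bp from the TSS, scored 14.8, 11.2, 12.8 and 17.5 and had 54.2% distinct 12-base words. The BTNL9 region of 496 bp scored 14.0, 15.4, 11.8 and 19.3 with 19.8% distinct words. A 202 bp region 9477 bp from SLC6A19, a neutral amino acid transporter of intestine and kidney, scored 9.36, 8.39, 9.98 and 10.0 with 45% distinct words. Another, in an intron 21993 bp from the TSS of PFDN1, a prefoldin subunit, had fully distinct words and scored 8.13, 9.21, 10.5 and 9.42. Of the 69 regions with a weakest percentile of at least 70, 10 (14.5%) were repetitive, against 2.53% of all constant regions of that strength.

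The regions were scattered over genes. Of the 1744, 1529 (87.7%) were within 100 kb of a protein-coding TSS, and their 1388 nearest genes had 1 region each in 1259 cases. Only 8 genes were nearest to 3 or more. The genes with most were IGLL5 and SFSWAP, a splicing regulator, with 4 each, then BCR, CROCC and GGTLC2 with 3 each, the last 3 taken alphabetically from ties that included HAAO and MMEL1. SFSWAP also had 4 constant regions with H3K23su in all 4 lists, and CROCC, which encodes rootletin, had 9. By chromosome the share of constant regions without H3K23su ran from 4.15% on chromosome 5 to 7.51% on chromosome 22 among autosomes, and was 6.56% on X and 12.2% (5 of 41 regions) on Y.

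IGLL5, GGTLC2 and BCR lie in or beside the immunoglobulin lambda locus of chromosome 22, which encodes the variable, joining and constant segments of a light chain of antibodies. From the first lambda variable gene to IGLC7 (chr22:22380474-23265206), 11 of 23 constant H3K27ac regions lacked H3K23su, 47.8% (26.8 to 69.4%), against 66 of 1002 (6.59%) on the rest of chromosome 22. Of the 23, 8 had H3K23su in all 4 lists. The median weakest percentile of constant regions was 33.5 in the locus and 55.7 on the rest of the chromosome, so the shares were not compared at like score. This locus was examined after its values were seen. The 11 regions were weak, with scores of 3.18 to 7.67 over the 4 libraries and weakest percentiles of 3.88 to 59.2. They were 361 to 1204 bp wide, 2695 to 89879 bp from H3K23su, and had CpG ratios of 0.0745 to 0.221. Of the 11, 7 overlapped a lambda gene or IGLL5. The region over IGLV9-49 scored 4.20, 4.66, 7.67 and 5.03, the one over IGLV2-11 scored 3.81, 4.37, 3.97 and 3.46, and the one over IGLJ1 and IGLL5 scored 4.21, 4.20, 5.49 and 4.01. In the heavy chain locus on chromosome 14, 4 of 24 constant regions lacked H3K23su. The kappa, TRA with TRD, TRB and TRG loci had 0 of 3, 0 of 5, 0 of 3 and 0 of 2.

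Gene lists of housekeeping functions had no promoter region of this kind. Over the lists written for this tissue and treatment, cytosolic ribosomal proteins had 0 of 80 genes with a constant region, mitochondrial ribosomal proteins 0 of 74, oxidative phosphorylation subunits 0 of 76 and proteasome subunits 0 of 37, against 2.26% of all protein-coding genes with a constant region. Cell cycle and replication genes (0 of 24), apoptosis and p53 targets (0 of 22), mismatch repair and uracil excision (0 of 17), histone acyl writers and erasers (0 of 25), intestinal epithelial factors (0 of 17) and junction and keratin genes (0 of 18) also had none. A count of 0 allows a share of up to 3.75% for the 80 cytosolic ribosomal genes and 17.6% for a list of 17. At the rate of 2.26%, lists of this size would hold few, and no list was tested. Numbered ZNF genes had 1 of 345 and solute carriers 2 of 212. Olfactory receptors had 1 gene with a constant region, and its region overlapped H3K23su.

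The lists that did have a gene at such a promoter held 1 or 2 each. EPHB2, a Wnt target that sets cell position in the intestinal crypt, scored 8.24 and 5.63 in HCT15-Pa and 9.85 and 16.2 in HCT15-FR. Its percentiles overlapped between the lines, at 86.9 and 71.0 in HCT15-Pa and 86.5 and 96.5 in HCT15-FR. No H3K23su peak lay in its promoter windows, and the nearest was 555 bp from the region. UCKL1, related to the uridine kinases that activate 5-FU, scored 9.07 and 8.63 in HCT15-Pa and 5.01 and 4.75 in HCT15-FR, with percentiles of 89.4 and 87.6 against 54.5 and 50.4. In percentile both parental libraries of UCKL1 were above both resistant ones, as at 25.5% of all constant regions. Its promoter windows held 3 other constant regions and an H3K23su peak. OGDHL, a homologue of the 2-oxoglutarate dehydrogenase that makes succinyl-CoA, had a weak region with scores of 4.20, 3.93, 3.28 and 4.12 that was 23196 bp from H3K23su.

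Among the AP-1 factors, MAFG scored 4.12, 4.12, 4.92 and 6.28 and ATF7 scored 5.98, 3.5, 6.71 and 3.49. Of the ABC transporters, ABCA2 scored 3.41, 5.32, 4.71 and 4.60. HOXB3 and HOXB6 shared a region with scores of 6.14, 3.93, 5.14 and 5.56. ZNF713 (8.36, 6.56, 9.50 and 6.10), SLC8A3 (3.57, 5.16, 6.15 and 6.44) and SLC22A18 (4.82, 5.29, 3.62 and 3.84) each had a region of the same kind. An H3K23su peak lay elsewhere in a promoter window of MAFG, ATF7, HOXB3, ZNF713 and SLC22A18. The promoter windows of ABCA2, HOXB6 and SLC8A3 held none.

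The lines were then compared over the regions, to ask whether sites without H3K23su changed in H3K27ac as the rest did. Peaks within the 1744 regions covered 756.8 and 748.9 kb in HCT15-Pa and 794.3 and 775.9 kb in HCT15-FR. Both resistant libraries were above both parental ones, by 32.3 kb or 4.29%. With 2 against 2 libraries a two-sided exact permutation test cannot go below p = 0.333, so no difference between the lines could pass a threshold, and these values are a description. Mean covered length was 431.7 ± 3.19 bp a region in HCT15-Pa and 450.2 ± 7.48 bp in HCT15-FR (SD, n = 2 libraries). Over all constant regions it was 821.8 ± 5.63 and 921.3 ± 7.56 bp, a difference of 12.1%. The whole H3K27ac lists covered 39.5 and 38.8 Mb in HCT15-Pa and 46.3 and 46.6 Mb in HCT15-FR. Longer coverage in HCT15-FR was thus a feature of the lists as a whole, and its part in these differences was not tested. Without HCT15-FR H3K27ac replicate 1 the sign over the regions lacking H3K23su turned, to −6.64 kb. With the stronger 50% of each H3K27ac list the difference was 78.3 bp a region.

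In score rank the direction was the opposite. The median within-list percentile of HCT15-Pa was 49.5 in replicate 1 and 49.0 in replicate 2, and that of HCT15-FR was 44.5 and 45.8, a difference of −4.09 points, without overlap between the lines. Over all constant regions the difference was 0.359 points. The H3K23su lists covered 33.5 and 33.0 Mb in HCT15-Pa and 40.0 and 39.4 Mb in HCT15-FR, so the rule drew on more H3K23su in the resistant line, and the part of this in the difference was not tested.

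**Figure D5:**
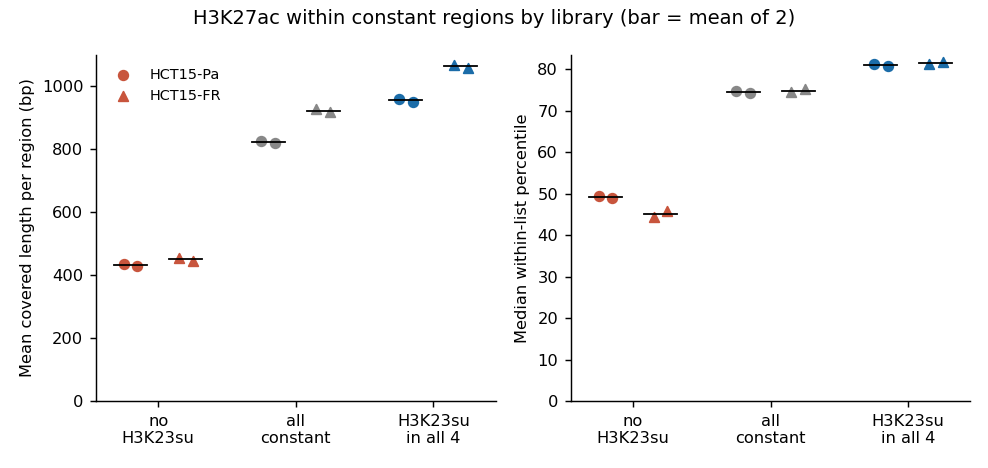
Mean length covered by H3K27ac peaks per region (left, bp) and median within-list percentile (right) in each of the 4 libraries, circles for HCT15-Pa and triangles for HCT15-FR, with bars at the mean of 2, for regions without H3K23su, all constant regions and regions with H3K23su in all 4 lists. Without H3K23su the lines differ by 18.5 bp and −4.09 points, and over all constant regions by 99.5 bp and 0.359 points.

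Region by region, covered length was larger in both HCT15-FR than in both HCT15-Pa libraries at 414 of the 1744 regions (23.7%, 21.8 to 25.8%), against 36.7% of all constant regions. The reverse held at 286 (16.4%, 14.7 to 18.2%), against 12.9%. For the percentile the counts were 272 (15.6%) against 26.4%, and 445 (25.5%) against 25.5%. For covered length the shares differed among weak regions and not visibly among strong ones. In the lowest 4 of 10 groups of the weakest percentile, covered length was larger in HCT15-FR at 21.2% (19.1 to 23.4%) of 1491 regions without H3K23su and at 36.0% (35.1 to 36.8%) of 12002 other constant regions. In the upper 6 groups the shares were 38.7% (32.7 to 45%) of 253 and 38.3% (37.7 to 39.0%) of 19986. For the percentile they were 14.8% against 27.3% in the lower groups and 20.2% (15.4 to 25.6%) against 26.8% in the upper ones.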

How the data were processed

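CUT&Tag of H3K27ac and H3K23su in HCT15-Pa and HCT15-FR cells (2 libraries for each line and mark) was aligned to hg19 with Bowtie2, filtered with SAMtools and called with MACS2 by the authors, separately for each library and in broad mode for H3K27ac. By the study's methods, reads that were not uniquely mapped or not properly paired were discarded. HOMER 4.10 and deepTools are also named in the submitters' processing notes. The deposited values are MACS2 peak scores, −log10 P, of each library's own peaks. The lists hold no reads, so they give no depth, scores of different libraries share no scale, and each was replaced by its percentile within its list. Scores and widths rise with depth and library complexity, which were not given in the files, and broad calling applied to H3K27ac only.

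H3K27ac peaks that overlapped or touched were merged, 1 shared base counted as overlap, and starts were made 1-based. Classes by midpoint used GENCODE 44 lifted to GRCh37 (promoters reached from 1 kb before a TSS to 100 bp after it), and sequence came from GRCh37, the same build as hg19 for these chromosomes. Motifs were searched within 200 bp of midpoints. Named genes were the 12 highest-ranked at promoters by weakest percentile, the genes within 100 kb of the 10 highest-ranked elsewhere, the 5 nearest to most regions, and up to 4 of each of 20 lists, chromosome 8 left out. Some genes and sequences that these rules select are not reported here. The regions described and the gene lists were chosen with earlier results of these data known. Nothing says that libraries came from separate cultures, so p-values measure only the spread between libraries, which may be technical.

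Lines were compared by two-sided exact permutation over 2 against 2 libraries, which cannot go below p = 0.333. Intervals are exact (Clopper-Pearson) 95% binomial ones and, like the limit of 3 counts for a share of 0, cover counting error only. The alternatives were other peak thresholds, list lengths, merging and overlap rules, promoter definitions, autosomes only, each library left out, and a replicate block. The rule was checked on simulated lists with Python 3.11.15, pandas 2.3.3 and SciPy 1.17.1.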

Additional observations from a re-analysis of the deposited data

How the results depend on the processing

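The promoter share of regions lacking H3K23su was lower, and their intergenic share higher, than with H3K23su in every list under all 20 settings computed, the reported one included. With the stronger 50% of each H3K27ac list, 252 regions remained, of which 23% were in promoters, and 97 and 26 had covered length larger in both HCT15-FR and in both HCT15-Pa libraries. With the stronger 50% of each H3K23su list these values were 5296, 17.3%, 1586 and 794. The promoter share was 13.9% without H3K23su within 2 kb, 11% with protein-coding genes only, 23.7% by any base and 31.9% within 2 kb of a TSS. The covered length differences, 32.3 kb and 18.5 bp as reported, were 19.7 kb and 78.3 bp with the stronger 50% of each H3K27ac list, 310.0 kb and 58.5 bp with that of each H3K23su list, 73.9 kb and 33.2 bp where H3K23su had to cover 20% of a region, and 9.04 kb and 7.04 bp without H3K23su within 2 kb. Leaving out each library gave 2117 to 2603 regions, promoter shares of 14.9 to 17.3%, covered length differences of −6.64 to 91.8 kb and −2.70 to 38.3 bp a region, and percentile differences of −7.01 to −2.71. The covered length differences were negative without HCT15-FR H3K27ac replicate 1 (−6.64 kb and −2.70 bp), and the cause was not tested. The counts above ranged from 480 to 1058 and from 336 to 812, and by construction 1 library against 2 overlaps less often than 2 against 2. Excluding H3K23su within 2 kb kept 3 of the 12 promoter genes and 8 of the 11 U RNA regions. Depth, which the lists do not give, limits how far an absent peak is an absent mark.

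The replicate numbers did not pair the libraries, as deviations of same-numbered libraries had correlations of 0.00457 in covered length and −0.00202 in percentile over 33732 constant regions. With the replicate block the differences were 32.3 kb, 18.5 bp and −4.09 points (two-sided exact sign-flip p = 0.5, the smallest for 2 pairs), and no direction changed.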
